A study of Mus musculus with 6 samples.

Results

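Centrosomal protein (Cep) genes were followed in mouse small intestinal organoids in which an active YAP was switched on with doxycycline. The genes were chosen by name and by read count: those whose mouse symbol starts with Cep and a digit, and whose counts reached 10 in at least 3 of the 6 columns of the deposited table. Of 24594 gene IDs in the table, 39 carried such a symbol and 35 met the count threshold. Of these 35, 34 encode proteins and Cep83os is a long non-coding RNA. The name and the count threshold do not use the difference between the groups, but the family was picked with earlier results of these data known.

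Organoids are epithelial structures grown in Matrigel, here from crypts of the proximal small intestine of adult mice, in medium with EGF, Noggin and R-spondin1. Both groups had the genotype TetON-hYAP/H2B-mCherry, in which doxycycline induces a human YAP transgene, the S127A mutant that stays active, and whose name also holds a red fluorescent histone; the promoter or cell type that drives the induction is not given in the sources used here. The doxycycline group (3 libraries) received 1 µg/ml for 48 h from passaging, and the control group (3 libraries) had the same genotype without induction. No library had doxycycline without the transgene, so the drug and active YAP cannot be told apart. Per the labels, adult crypts came from 1 individual per sample. The labels do not say whether libraries of the 2 groups share an animal, so p-values measure the spread between these libraries.

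The centrosome is the main microtubule-organising centre of an animal cell. It holds a pair of centrioles inside a pericentriolar matrix that nucleates microtubules, and it is duplicated once per cell cycle. In resting cells the mother centriole docks at the membrane through its distal appendages and templates a primary cilium. Cep proteins take part in all of these steps: some build or count centrioles, some hold the centrioles together, some form appendages, and some act at the cilium or, in the case of Cep55, at the midbody when daughter cells separate. In the intestine, dividing cells sit in the crypt, and differentiated absorptive cells of the villus have left the cell cycle.

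Most of the Cep genes that changed were lower with doxycycline, and the 2 with the highest mean level over all libraries were higher. Among the 35 genes, 20 fell, 2 rose (Cep170b and Cep350) and 13 did not pass an adjusted p of 0.05 in edgeR's quasi-likelihood test over the whole table. Over all 12909 genes tested, 23.6% were called lower, 21.7% higher and 45.3% in either direction. Among the Cep genes 57.1% were called lower and 5.71% higher. At least 2-fold lower were 16 of the Cep genes, against 17.5% of all genes. The median log2 fold change, doxycycline over control, was -1.02 over the 35 Cep genes and -0.08 over all genes tested. Cep131 met the count threshold through the control libraries alone and so had to differ; without it 19 of 34 fell and the median was -0.95. Normalised read counts (CPM, scaled by TMM to the depth of each library) of the 2 groups did not overlap, with doxycycline lower, for 23 Cep genes (31.3% of all genes) and, with doxycycline higher, for 5 (30.0% of all genes).

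**Figure D1:**
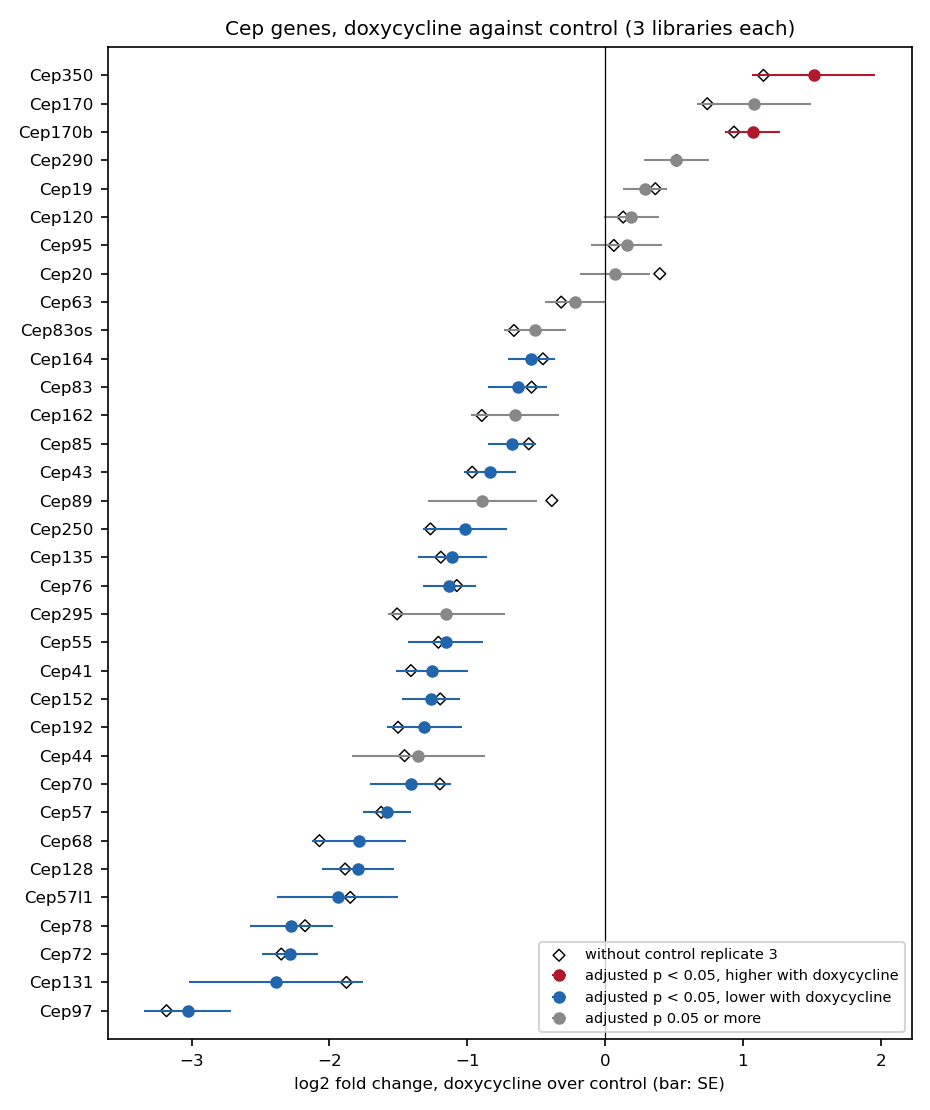
Log2 fold change of 34 of the Cep genes, doxycycline over control (filled points, with bars for 1 SE; 3 libraries per group), and the same without control replicate 3 (open diamonds). The values run from -3.03 for Cep97 to 1.51 for Cep350, with 26 genes below 0.

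The libraries held 8533452 to 16803062 counts. Control replicate 3 stood apart: across the 12909 genes, on log2(CPM + 0.5), its correlation with the other control libraries was 0.918 and 0.922, against 0.993 between those 2 and 0.990 to 0.993 among doxycycline libraries. Genes whose longest transcript exceeded 5 kb had a median log2 level 0.62 below the other control libraries there (-0.62), and the 15 Cep genes of that length had a median difference of -0.51. Without control replicate 3, 24 Cep genes fell, or 23 apart from Cep131 (35.1% of all genes tested), and 5 rose (34.9% of all genes). Leaving out doxycycline replicate 2 or 3 left 13 Cep genes that fell, and leaving out any other single library left 16 to 24. The number that rose was 1 without any 1 of the doxycycline libraries and 3 without control replicate 1. Calls over the whole table shifted too. They numbered 5148 without control replicate 1 and 5010 without control replicate 2, against 5850 with all libraries. Whether the Cep counts shifted more than those of all genes was not tested.

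**Figure D2:**
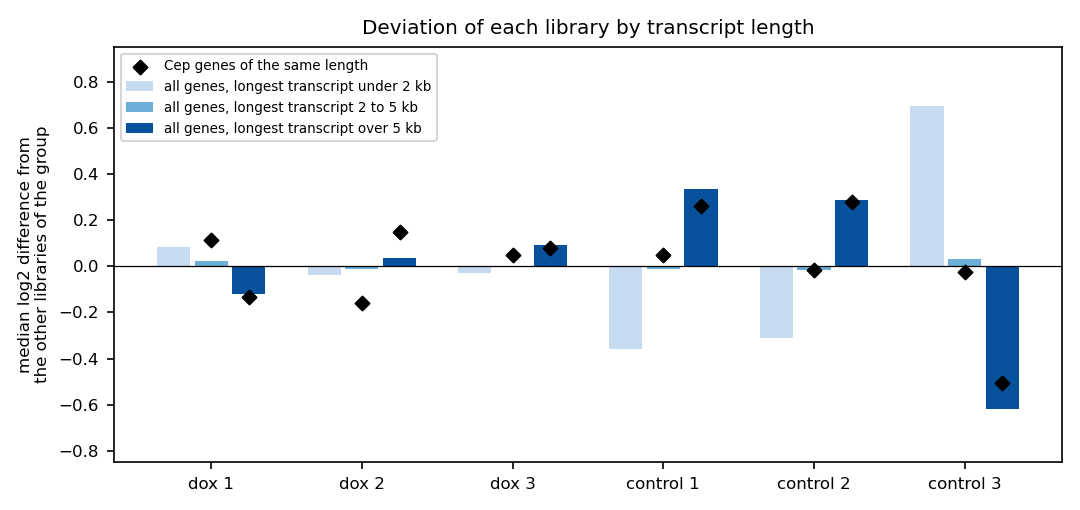
Median log2 difference of each library from the other libraries of its group, for all genes tested in 3 classes of longest transcript (bars) and for Cep genes of the 2 longer classes (diamonds). Control replicate 3 reads -0.62 for transcripts over 5 kb and 0.70 for those under 2 kb.

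All 6 classical YAP target genes checked (Ccn1, Ccn2, Ankrd1, Amotl2, Ajuba and Lats2) rose, against 21.7% of all genes. The human YAP transgene itself was not analysed here. All 7 epithelial markers were detected and tested, and 5 of them rose (71.4%, against 21.7% of all genes). Of 12 multiciliated cell markers in the table, Gmnc and Tekt1 were at 0 and the list summed to 9.70 to 13.7 CPM with doxycycline and 8.15 to 17.2 CPM in controls. Summed mesenchymal markers were at 1.11 to 1.69 CPM with doxycycline and 4.42 to 6.49 CPM in controls, with Col1a1 and Dcn at 0. Most of that sum was Vim, the only one of the list tested, which fell (0.825 ± 0.272 CPM with doxycycline and 4.85 ± 1.28 CPM in controls; SD, n = 3 each), and most of the multiciliated sum was Ccdc39 (8.99 ± 1.29 CPM with doxycycline and 9.83 ± 4.15 CPM in controls). Immune markers summed to 5.15 to 7.49 CPM with doxycycline and 4.15 to 8.06 CPM in controls. Endothelial markers summed to 0.303 to 0.847 CPM with doxycycline and 0.584 to 0.923 CPM in controls, with Kdr at 0.

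Markers of the G2 and M phases moved with the Cep genes. Of 14 such markers, 12 fell (85.7%, against 23.6% of all genes) and 0 rose, with a median log2 fold change of -2.13. All 14 fell without control replicate 3, where 35.1% of all genes tested fell. The markers summed to 391.9 to 428.3 CPM with doxycycline and 978.9 to 1570 CPM in controls. Their part in the Cep result was not tested, and in these bulk libraries fewer dividing cells and less RNA per cell cannot be told apart.

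Promoter windows are shown for the 3 Cep genes with the largest falls apart from Cep131, and for Cep170b, the gene that rose for which the RefSeq table used here gives a window. Each window holds 300 bases, from 250 before to 50 after the annotated start, from RefSeq on GRCm38.p6, read 5′ to 3′ on the gene's strand. Capitals mark matches, on either strand, to 4 motifs: CCAAT (bound by NF-Y), TTTGAA (the CHR element of mitotic genes), TTCCCGC (an E2F-type core) and CATTCC (the core of the TEAD motif, the DNA-binding partners of YAP).
Cep97, chr16:55934799-55935098, minus strand: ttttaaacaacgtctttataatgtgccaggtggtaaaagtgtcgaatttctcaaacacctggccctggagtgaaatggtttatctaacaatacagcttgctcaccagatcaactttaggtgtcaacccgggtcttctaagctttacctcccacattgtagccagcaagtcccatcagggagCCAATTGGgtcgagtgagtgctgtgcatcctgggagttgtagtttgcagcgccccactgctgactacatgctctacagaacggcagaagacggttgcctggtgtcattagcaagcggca
Cep72, chr13:74062236-74062535, minus strand: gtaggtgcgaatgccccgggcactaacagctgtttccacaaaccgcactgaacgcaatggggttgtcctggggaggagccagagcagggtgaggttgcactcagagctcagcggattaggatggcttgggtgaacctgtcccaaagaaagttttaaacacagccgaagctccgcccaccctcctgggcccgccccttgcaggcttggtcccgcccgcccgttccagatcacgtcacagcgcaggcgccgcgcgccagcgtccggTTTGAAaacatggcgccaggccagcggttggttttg
Cep78, chr19:15984940-15985239, minus strand: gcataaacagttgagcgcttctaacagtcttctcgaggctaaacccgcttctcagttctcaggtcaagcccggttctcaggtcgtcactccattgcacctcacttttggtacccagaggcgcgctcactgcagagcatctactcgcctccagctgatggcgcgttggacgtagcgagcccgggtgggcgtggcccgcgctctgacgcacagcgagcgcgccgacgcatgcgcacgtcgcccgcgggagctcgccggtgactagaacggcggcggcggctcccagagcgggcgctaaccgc
Cep170b, chr12:112721924-112722223, plus strand: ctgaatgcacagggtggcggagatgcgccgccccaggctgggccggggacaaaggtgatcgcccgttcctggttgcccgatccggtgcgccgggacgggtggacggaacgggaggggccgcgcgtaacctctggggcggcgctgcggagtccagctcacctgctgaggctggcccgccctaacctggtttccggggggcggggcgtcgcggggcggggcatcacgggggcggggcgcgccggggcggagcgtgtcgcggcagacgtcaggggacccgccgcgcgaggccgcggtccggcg

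Only Cep97 and Cep72 of these 4 windows held a match. By their gene coordinates, Cep78 reaches position 15985700 and Cep170b begins at 112721514, both upstream of the windows shown. Bases near those outer ends were not searched. The Cep97 window holds CCAAT and its reverse complement overlapping each other, upstream of the start, and the Cep72 window holds TTTGAA just after the start. RefSeq's table gave 34 windows for 30 of the 35 genes. Among the 21 windows of Cep genes that fell, 11 (52.4%) held CCAAT, against 37.4% of all 32851 windows, and 6 (28.6%) held TTTGAA, against 17.9%. TTCCCGC was in 6 (28.6%), against 4.60%, and CATTCC in 2 (9.52%), against 14.7%. Windows of the Cep genes that were not called held CCAAT in 5 of 12 (41.7%), TTTGAA in 4 (33.3%), TTCCCGC in 3 (25.0%) and CATTCC in 1 (8.33%). The 32851 windows came from 27025 genes and were not limited to the 12909 genes tested, whereas the Cep genes all met a count threshold. The 21 windows of Cep genes that fell came from 18 genes, so some genes count more than once. Cep131, which had to differ, was not set aside for these shares. Base composition differs between promoters and its part in these shares was not tested.

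Genes that act in centriole duplication formed the largest group, with 13 members. Apart from Cep131, which had to differ, 8 of 12 fell and 0 rose, with a median log2 fold change of -1.21; with it, 9 of 13 fell, against 23.6% of all genes. Without control replicate 3, 11 of the 13 fell, Cep131 among them, where 35.1% of all genes tested fell.

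Cep97 caps the growing end of centrioles together with Ccp110. It had 1.62, 1.02 and 1.13 CPM with doxycycline, against 10.6, 12.3 and 7.74 CPM in controls. Every doxycycline library lay below every control library, and the log2 fold change came to -3.03 (SE 0.316, edgeR adjusted p = 4.75e-04), or 8.16-fold lower, the largest fall of the family. Cep57 sits in the ring around the centriole wall. Its level was 12.8, 10.7 and 12.6 CPM with doxycycline and 40.1, 34.8 and 33.2 CPM in controls. The groups stood well apart, and the log2 fold change was -1.58 (SE 0.174, adjusted p = 5.63e-04). Its paralogue Cep57l1 had 3.33, 1.02 and 1.55 CPM with doxycycline and 6.08, 7.997 and 8.45 CPM in controls. It fell by 1.94 in log2 terms (SE 0.439, adjusted p = 0.0111), with an adjusted p of 0.0552 without doxycycline replicate 3.

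The scaffold proteins Cep152 and Cep192 recruit the kinase Plk4, which starts a new centriole. Cep152 had 4.75, 6.56 and 5.72 CPM with doxycycline and 12.9, 13.5 and 14.6 CPM in controls. The 3 control libraries were close to each other, and Cep152 fell by 1.26 in log2 terms (SE 0.213, adjusted p = 0.00322). Cep192 had 8.39, 8.69 and 10.2 CPM with doxycycline, against 23.4, 29.1 and 15.2 CPM in controls. Control replicate 3 was the lowest control, still above all doxycycline libraries, and Cep192 fell by 1.31 (SE 0.272, adjusted p = 0.00798). Cep63, which binds Cep152, did not pass: it had 8.58 ± 0.922 CPM with doxycycline and 9.97 ± 1.61 CPM in controls (SD, n = 3 each; edgeR adjusted p = 0.448), and its groups overlapped.

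Cep135 belongs to the cartwheel that sets the centriole's symmetry. Its level was 3.64, 3.33 and 4.38 CPM with doxycycline and 9.76, 7.77 and 6.94 CPM in controls. The groups did not overlap, and it fell by 1.11 in log2 terms (SE 0.2497, adjusted p = 0.0105), with an adjusted p of 0.0534 without doxycycline replicate 2. Cep76, which restrains repeated duplication, had 8.99, 7.03 and 8.33 CPM with doxycycline and 17.8, 16.7 and 18.8 CPM in controls. All doxycycline libraries were at about the same low level, and it fell by 1.13 (SE 0.193, adjusted p = 0.00336). Cep85, which binds the duplication factor Stil, had 34.3, 30.8 and 27.3 CPM with doxycycline and 43.2, 47.9 and 56.6 CPM in controls. This smaller fall of 0.68 in log2 terms (SE 0.176, adjusted p = 0.0185) lost its call when control replicate 2 (adjusted p = 0.0504) or doxycycline replicates 2 and 3 in turn (0.0784 and 0.0946) were left out, or with the replicate number as a block (0.0726).

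Cep295 and Cep44 act when a new centriole becomes a centrosome. Cep295 had 19.5, 19.97 and 21.8 CPM with doxycycline and 64.2, 53.4 and 18.4 CPM in controls. The control libraries disagreed: replicates 1 and 2 lay above all doxycycline libraries and replicate 3 lay below them. Its log2 fold change was -1.15 (SE 0.424, adjusted p = 0.0624), and without control replicate 3 it was -1.51 (adjusted p = 5.88e-10). Cep44 had 12, 6 and 31 counts with doxycycline and 67, 48 and 27 counts in controls, and did not pass (adjusted p = 0.0555, and 0.00386 without control replicate 3). Cep120, which acts in centriole elongation, had 19.3 ± 2.91 CPM with doxycycline and 16.9 ± 2.16 CPM in controls, with overlapping groups (SD, n = 3 each; edgeR adjusted p = 0.471). Cep131, a protein of centriolar satellites, had 1, 2 and 4 counts with doxycycline and 13, 10 and 18 counts in controls, just inside the count threshold. Its call (log2 fold change -2.39, adjusted p = 0.0198) was lost without any 1 of the doxycycline libraries, with adjusted p of 0.0718, 0.0747 and 0.0508.

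The linker, matrix and anchoring group of 6 genes held 5 that fell (83.3%, against 23.6% of all genes). In it 1 rose, Cep350 (16.7%, against 21.7%), and the median log2 fold change of the group was -1.21. Cep72, a satellite and matrix protein, had 5.25, 6.29 and 5.37 CPM with doxycycline, against 26.4, 31.8 and 24.4 CPM in controls. The groups were far apart, and the log2 fold change of -2.29 (SE 0.201, adjusted p = 2.47e-04) had the smallest adjusted p of the Cep genes. Cep68 and Cep250 form the fibres that tie the pair of centrioles together until mitosis. Cep68 had 13.4, 11.8 and 14.5 CPM with doxycycline and 57.3, 55.7 and 23.9 CPM in controls. Control replicate 3 lay far below the other controls, and Cep68 fell by 1.78 in log2 terms (SE 0.344, adjusted p = 0.00585). Cep250 had 17.1, 22.2 and 20.6 CPM with doxycycline and 53.5, 43.6 and 23.9 CPM in controls. It fell by 1.02 (SE 0.305, adjusted p = 0.0318), with its control replicate 3 again the lowest control. That call was lost when control replicate 1 or 2 or any doxycycline library was left out (adjusted p = 0.0760 to 0.116) and with the replicate block (0.0697).

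Cep70, which acts in microtubule organisation, had 5.05, 3.33 and 3.25 CPM with doxycycline and 9.12, 8.61 and 13.2 CPM in controls. It fell by 1.41 in log2 terms (SE 0.295, adjusted p = 0.00809), with no overlap. Cep43, also known as FOP and a binding partner of Cep350, had 22.4, 21.7 and 22.7 CPM with doxycycline and 45.6, 42.1 and 31.3 CPM in controls. The doxycycline libraries hardly differed from each other, and Cep43 fell by 0.83 (SE 0.188, adjusted p = 0.0104), with adjusted p of 0.0540 without doxycycline replicate 2 and 0.0502 without doxycycline replicate 3.

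Cep350 anchors microtubules and Cep43 at the centriole, and it moved the other way from Cep43. It had 301.9, 433.7 and 450.2 CPM with doxycycline and 190.4, 169.6 and 55.3 CPM in controls. All doxycycline libraries lay above all controls, and control replicate 3 was far below the other controls. The log2 fold change was 1.51 (SE 0.449, adjusted p = 0.0307), or 2.85-fold higher, and 1.15 (adjusted p = 0.00198) without control replicate 3. The call was lost without doxycycline replicate 1 (adjusted p = 0.0557), 2 (0.0930) or 3 (0.0930) and when libraries were scaled by their totals alone (0.0768). Its longest transcript, at 13307 bases, was the longest of the family. With a trend in transcript length removed from each library the log2 fold change was 1.40 (adjusted p = 0.00287).

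The appendage group had 6 measured members, of which 3 fell (50.0%, against 23.6% of all genes) and 1 rose (16.7%, against 21.7%). Its median log2 fold change was -0.58. Proteins of the subdistal appendages anchor microtubules, and those of the distal appendages dock the centriole at the membrane. Cep170b, the paralogue of the subdistal appendage protein Cep170, had 517.5, 625.5 and 611.7 CPM with doxycycline, against 307.4, 310.4 and 217.4 CPM in controls. It rose by 1.07 in log2 terms (SE 0.197, adjusted p = 0.00475), or 2.10-fold, with no overlap. Cep170 itself had 9.50, 9.71 and 7.77 CPM with doxycycline and 5.96, 4.77 and 1.81 CPM in controls. Its groups did not overlap either, but its log2 fold change of 1.08 did not pass (SE 0.411, adjusted p = 0.0689), and was 0.74 (adjusted p = 0.00536) without control replicate 3. Cep128, another subdistal protein, went the other way: it had 3.43, 2.59 and 2.26 CPM with doxycycline and 9.70, 10.7 and 8.15 CPM in controls. Its log2 fold change was -1.79 (SE 0.263, adjusted p = 0.00179).

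The distal appendage genes showed smaller differences. Cep164, which starts membrane docking, had 21.3, 18.6 and 19.7 CPM with doxycycline and 29.9, 24.7 and 31.7 CPM in controls. Cep83, at the base of the appendage, had 7.07, 7.76 and 6.64 CPM with doxycycline and 11.3, 9.46 and 12.6 CPM in controls. In neither did the groups overlap. Cep164 fell by 0.53 in log2 terms (SE 0.173, adjusted p = 0.0401) and Cep83 by 0.63 (SE 0.211, adjusted p = 0.0438). Both calls were near the threshold. That of Cep164 was lost without control replicate 1 or any doxycycline library (adjusted p = 0.0896 to 0.153), with the replicate block (0.106) and with no low-count filter (0.0690). The call of Cep83 was lost without control replicate 1 or 2 or any doxycycline library (0.0554 to 0.161), with the block (0.132), with RLE factors (0.0510) and with no low-count filter (0.0745). Cep89, a further distal appendage gene, had 3.23, 3.88 and 2.89 CPM with doxycycline and 4.38, 4.38 and 9.96 CPM in controls and did not pass (adjusted p = 0.107). The non-coding RNA Cep83os had 11.2 ± 0.413 CPM with doxycycline and 15.9 ± 3.65 CPM in controls (SD, n = 3 each) and did not pass in edgeR's test (adjusted p = 0.104, and 0.00108 without control replicate 3).

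Of 7 genes that act at the cilium, 2 fell, 0 rose and 5 did not pass, so that 28.6% were called lower, near the 23.6% of all genes. Leaving out control replicate 3 gave 3 that fell and 2 that rose, where 35.1% of all genes tested fell and 34.9% rose. Cep78, which acts at the mother centriole, had 1.21, 1.85 and 1.91 CPM with doxycycline, against 8.998, 6.31 and 9.05 CPM in controls. The groups were well separated at these low levels, and the log2 fold change was -2.28 (SE 0.302, adjusted p = 0.00118). Cep41, needed for tubulin glutamylation in the axoneme, had 3.84, 3.79 and 3.39 CPM with doxycycline and 10.9, 8.61 and 6.64 CPM in controls. It fell by 1.25 in log2 terms (SE 0.263, adjusted p = 0.00788).

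The other cilium genes had smaller differences. Cep290, the gatekeeper of the transition zone, had 5.66, 7.03 and 6.99 CPM with doxycycline and 5.20, 3.999 and 4.53 CPM in controls (log2 fold change 0.52, adjusted p = 0.112). Cep19, which recruits a small GTPase to the ciliary base, had 25.9, 29.1 and 25.7 CPM with doxycycline and 21.6, 20.5 and 23.9 CPM in controls (0.29, adjusted p = 0.179, and 0.0160 without control replicate 3). In both genes every doxycycline library was above every control library, without passing the test. Cep20 had 39.4 ± 4.01 CPM with doxycycline and 37.6 ± 12.7 CPM in controls (SD, n = 3 each), with control replicate 3 above all other libraries. Its edgeR adjusted p was 0.838, and 0.00500 without that library. Cep162, which marks the axoneme for the transition zone, had 9.70, 6.66 and 7.201 CPM with doxycycline and 15.3, 14.0 and 7.54 CPM in controls. Control replicate 3 fell within the doxycycline range, and the log2 fold change of -0.65 (adjusted p = 0.137) was -0.89 (adjusted p = 3.36e-04) without it. With total counts as the only scaling, which moved the median of all genes from -0.08 to -0.52, the log2 fold changes of Cep19, Cep20, Cep95 and Cep120 were negative.

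Cep55 works at the midbody, where it recruits the machinery that cuts daughter cells apart. It had 18.1, 8.87 and 13.9 CPM with doxycycline and 30.9, 32.6 and 27.6 CPM in controls. The doxycycline libraries varied more than the controls but stayed below them, and Cep55 fell by 1.16 in log2 terms (SE 0.272, adjusted p = 0.0128), with an adjusted p of 0.0535 without doxycycline replicate 3. Of 13 abscission partners, 5 fell (38.5%, against 23.6% of all genes) and 4 rose (30.8%, against 21.7%). The midzone genes Cit (7.12 ± 1.21 CPM with doxycycline and 47.8 ± 5.94 CPM in controls), Racgap1 (14.97 ± 1.17 and 68.2 ± 16.1 CPM) and Prc1 (20.4 ± 2.61 and 87.9 ± 20.6 CPM) fell. Pdcd6ip, which encodes the ESCRT adaptor ALIX that Cep55 recruits, rose (535.9 ± 23.1 CPM with doxycycline and 195.2 ± 20.4 CPM in controls; SD, n = 3 each). Cep95 had 4.65 ± 0.787 CPM with doxycycline and 4.15 ± 0.548 CPM in controls, with overlapping groups (edgeR adjusted p = 0.648).

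**Figure D3:**
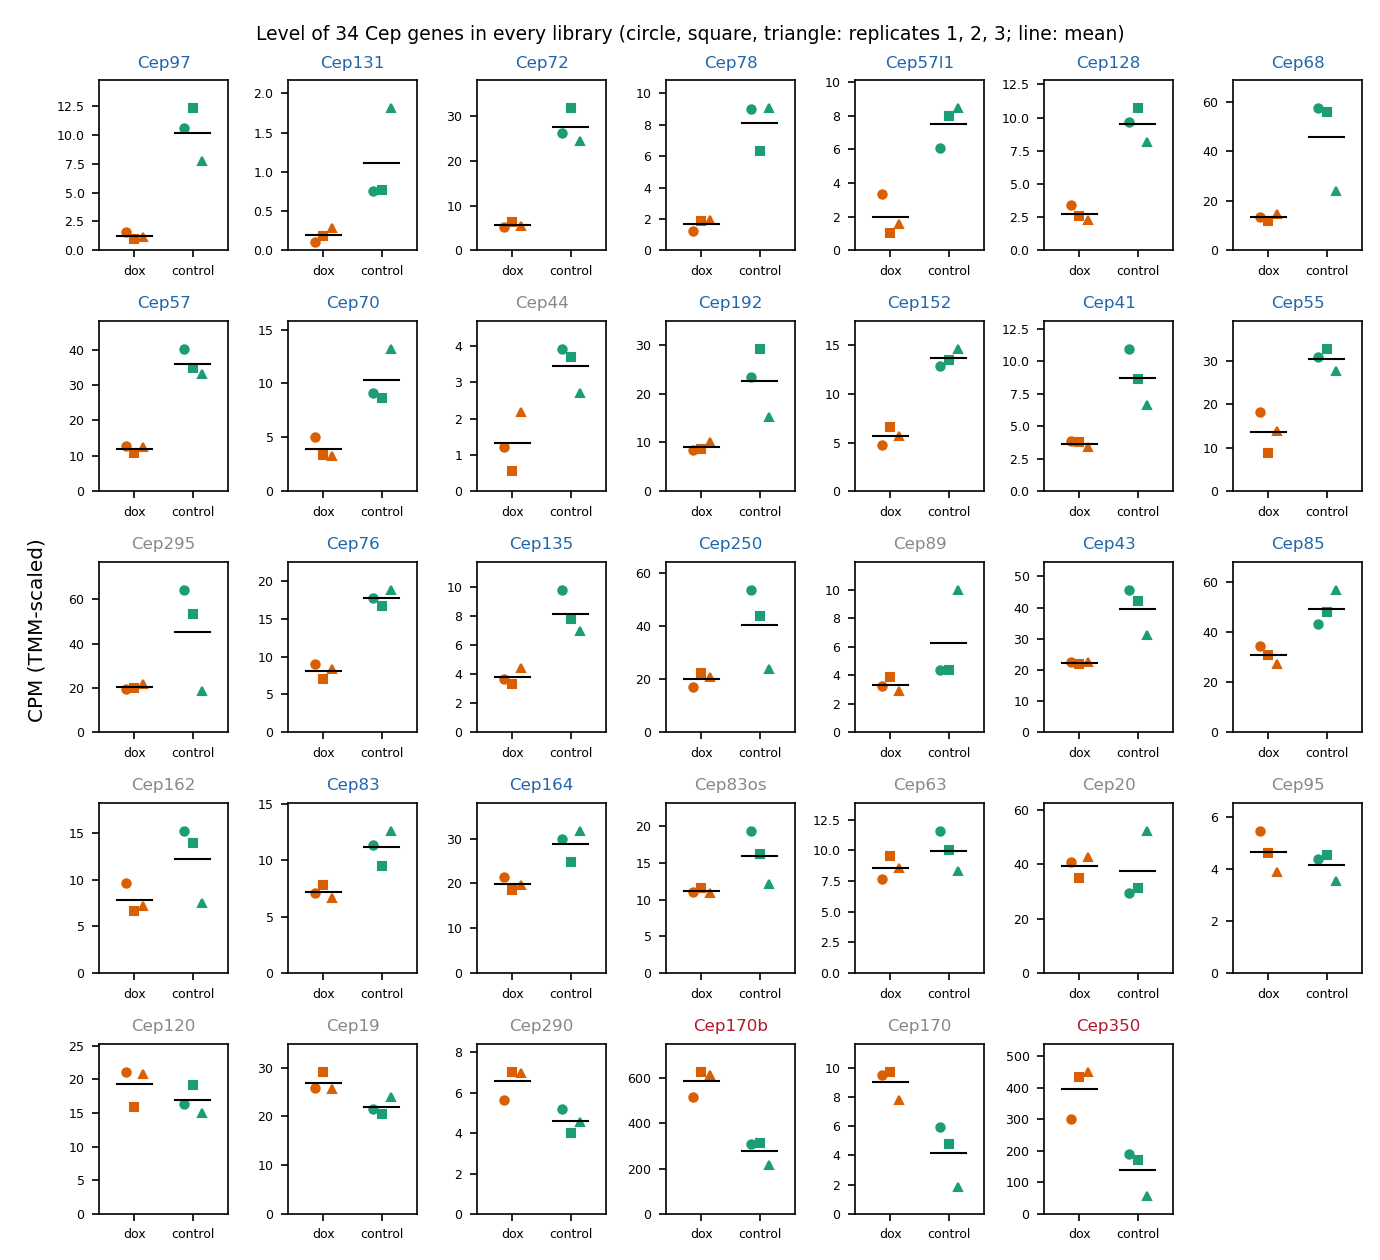
CPM (TMM-scaled) of 34 of the Cep genes in the 3 doxycycline libraries (left) and the 3 control libraries (right), with the mean as a line; gene names are blue where lower, red where higher and grey where not called. Control replicate 3 (triangle) is the lowest control in Cep350, Cep295, Cep250 and Cep68.

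With doxycycline the 2 genes that rose took the largest part of the reads of the family, and in controls the other 33 genes did. Summed over the 35 genes, the Cep level was 1203, 1410 and 1435 CPM with doxycycline and 1182, 1136 and 830.1 CPM in controls. Cep170b and Cep350 together made up 68.1, 75.1 and 74.0% of that sum with doxycycline and 42.1, 42.2 and 32.9% in controls. The other 33 genes summed to 383.4, 351.1 and 372.6 CPM with doxycycline and 683.9, 656.4 and 557.4 CPM in controls, with no overlap. Per kilobase of the longest annotated transcript, the mean level of Cep170b was 88.1 CPM with doxycycline and 41.9 CPM in controls, and that of Cep350 was 29.7 CPM with doxycycline and 10.4 CPM in controls. Library by library, Cep350 was at 22.7, 32.6 and 33.8 CPM per kilobase with doxycycline and at 14.3, 12.7 and 4.16 CPM per kilobase in controls. With doxycycline it was above Cep19 (15.1, 16.9 and 14.96 CPM per kilobase) in every library. In controls it was above Cep19 (12.5, 11.95 and 13.9 CPM per kilobase) in replicates 1 and 2 and below it in replicate 3. Cep57, at 15.9, 13.8 and 13.2 CPM per kilobase in controls, was above Cep350 in every control library. By control mean, Cep85 (12.6 CPM per kilobase) and Cep43 (11.3) were above Cep350 as well. Cep131 had the lowest level per kilobase, at 0.0529 CPM with doxycycline and 0.311 CPM in controls.

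The 4 Cep genes outside the count threshold were Cep126, with 6, 4 and 9 counts with doxycycline and 14, 12 and 1 in controls, Cep112, with 0, 0 and 0 with doxycycline and 6, 4 and 0 in controls, Cep295nl and Cep85l. The last pair had 2 counts each over all libraries. Of the 35 genes, 10 share exonic bases with another gene of the GENCODE M21 annotation, among them Cep63 with Anapc13, and the use of strand in counting was not given, so their counts are less certain.

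Centrosome genes with other names were described through lists of known members. Of 16 genes of centriole assembly, 10 fell (62.5%, against 23.6% of all genes) and 0 rose. Their median log2 fold change was -1.23, against -0.08 over all genes tested. Without control replicate 3, 13 fell and 1 rose, where 35.1% of all genes tested fell and 34.9% rose. The kinase gene Plk4 had 7.67 ± 0.337 CPM with doxycycline and 27.3 ± 11.9 CPM in controls (SD, n = 3 each; edgeR adjusted p = 0.00682). By adjusted p the leading members were the centrosome separation kinase Nek2 (30.6 ± 2.09 CPM with doxycycline and 116.5 ± 17.1 CPM in controls), Mdm1 (1.52 ± 0.0449 and 6.95 ± 1.16 CPM) and the cartwheel gene Sass6 (4.85 ± 0.939 and 17.1 ± 1.95 CPM). Ccp110, the partner of Cep97 in the centriole cap, did not pass, with 27.1 ± 1.01 CPM with doxycycline and 15.8 ± 8.67 CPM in controls (edgeR adjusted p = 0.188), and was the member that rose without control replicate 3 (adjusted p = 0.0106). Stil fell as well, with 10.5 ± 1.84 CPM with doxycycline and 29.6 ± 10.7 CPM in controls.

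Of 15 genes of the pericentriolar material, 6 fell (40.0%, against 23.6% of all genes) and 0 rose (median -0.66). Leaving out control replicate 3 gave 12 that fell, where 35.1% of all genes tested fell. Plk1, a kinase of mitosis, had 17.4 ± 2.08 CPM with doxycycline and 96.8 ± 4.13 CPM in controls, and the kinase gene Aurka, whose protein binds Cep192, had 14.9 ± 2.72 CPM with doxycycline and 56.4 ± 28.0 CPM in controls. Of 8 satellite genes, 4 fell (50.0%, against 23.6%) and 0 rose (median -0.73), led by Ccdc14 (5.33 ± 1.37 CPM with doxycycline and 11.9 ± 3.30 CPM in controls). Among 10 partners of the linker and appendages, 4 fell (40.0%, against 23.6%) and 0 rose (median -0.64). Those that fell included the subdistal appendage gene Odf2 (21.4 ± 3.58 CPM with doxycycline and 45.6 ± 7.59 CPM in controls) and the rootlet gene Crocc (2.27 ± 0.2202 and 6.502 ± 2.01 CPM).

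Of the genes of transport in the cilium, 18 were tested, of which 2 fell (11.1%, against 23.6% of all genes), 1 rose (5.56%, against 21.7%) and 15 did not pass (median -0.09). Leaving out control replicate 3 gave 4 that fell and 4 that rose, where 35.1% of all genes tested fell and 34.9% rose. The motor gene Kif3b rose, with 149.9 ± 18.9 CPM with doxycycline and 57.9 ± 18.6 CPM in controls, while Ift27 (1.602 ± 0.254 and 4.26 ± 1.10 CPM) and Ift140 (9.01 ± 1.63 and 15.9 ± 1.11 CPM) fell. The difference between this list and the Cep genes was not tested.

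**Figure D4:**
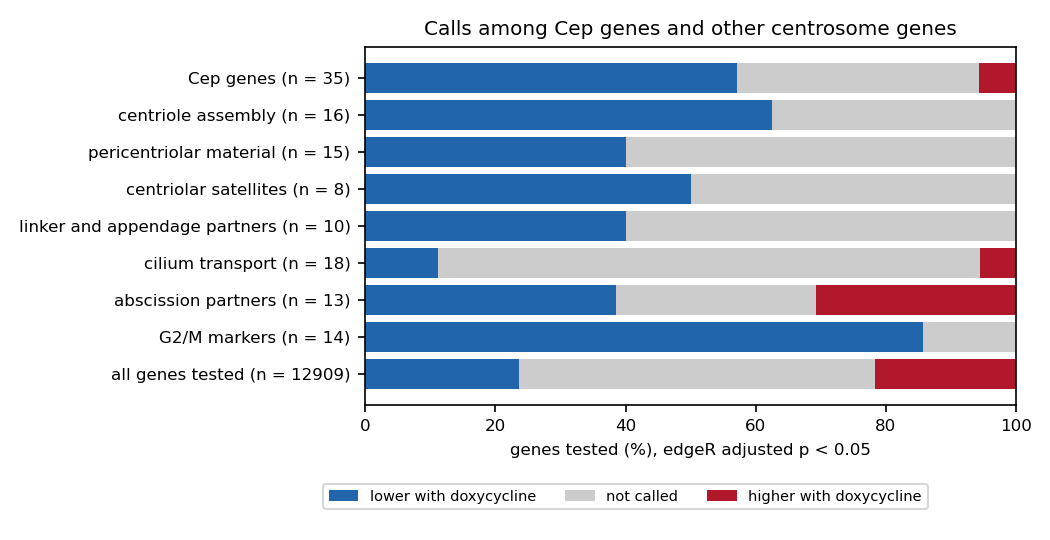
Share of tested genes called lower (blue), not called (grey) or called higher (red) with doxycycline, for the 35 Cep genes, the lists of other centrosome genes, G2 and M markers and all 12909 genes tested. Genes called lower make up 57.1% of the Cep genes and 23.6% of all genes.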

How the data were processed

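RNA-seq counts per gene from 3 doxycycline and 3 control libraries were analysed. The authors deposited whole-number read counts per Entrez gene ID, on the mm10 build according to the submitters' processing notes. Which aligner and counter were used, and whether strand was, is not given in the sources used here. Symbols came from RefSeq's table of GRCm38.p6, which matched 24570 of 24594 IDs. Genes that passed edgeR's filter by group (12909) were tested with edgeR 4.0.16 (R 4.3.3) under TMM scaling and the robust quasi-likelihood F-test, with Benjamini-Hochberg adjustment over all of them and a threshold of 0.05. The steps were tested on simulated data, which held no library standing apart and no trend with transcript length.

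The members, roles, lists and motifs were chosen with earlier results of these data known. All Cep genes past the count threshold could be named; 1 that was not called enters the counts and is not reported here by name. Of each list, up to 4 members with the smallest adjusted p were named, and Stil and Ccp110 were chosen after their values were seen. Ninl is in 2 lists. Alternatives were RLE factors, total counts, no low-count filter, 10 counts in 3 libraries, DESeq2 1.42.0, limma-voom (limma 3.58.1), a replicate block, removal of a trend with the longest GENCODE M21 transcript, a threshold of 0.01 and each library left out.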

Additional observations from a re-analysis of the deposited data

How the results depend on the processing

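Of the 20 Cep genes that fell, 11 were called in every one of 14 alternatives to the edgeR fit (all but the stricter threshold), and so was Cep170b of the 2 that rose. With an adjusted p under 0.01, 3477 genes of the whole table were called, 1 Cep gene was higher and 11 were lower. With total counts as the only scaling, 1 Cep gene was higher and 26 were lower, the median log2 fold change of the Cep genes was -1.46, and the whole table split into 1747 higher and 5128 lower genes, against 2800 and 3050 with TMM. With each library left out in turn, 3836 to 9286 genes were called in the whole table, 1 to 5 Cep genes were higher, 13 to 24 were lower, and their median log2 fold change was -1.08 to -0.81. The cause of these shifts was not tested. DESeq2 called 22 Cep genes lower and 3 higher, and 6726 genes in the whole table, against 5850 in the main edgeR fit.

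Of the Cep genes reported by name, only ones that were not called reversed. With total counts they were Cep120 (-0.25), Cep95 (-0.28), Cep20 (-0.37) and Cep19 (-0.15). Cep20 was at -0.031 with the length trend removed and at -0.079 to 0.40 with each library left out, below 0 without control replicate 1 or 2.

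For same-numbered libraries the correlations of the deviations from the group means were -0.34, 0.15 and -0.22. With 3 libraries per group and control replicate 3 standing apart, these values cannot show whether libraries share an animal. The labels give no pairs, so the numbers were not taken as pairs. With the replicate block 4509 genes were called in the whole table, 16 Cep genes were lower and 2 higher, and the median of the Cep genes was -0.95. Depth limits Cep131 most, with at most 18 counts in a library.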
